A study of Arabidopsis thaliana with 6 samples.

Results

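Pectin methylesterases and the invertase/pectin methylesterase inhibitors were followed in whole seedlings of Arabidopsis thaliana that lack RCB, a regulator of chloroplast biogenesis. The members were taken by locus: 60 genes, of which 49 encode methylesterases and 11 encode inhibitors. The array could be read for 43 of the 60 through a probe set that names a single gene, 32 methylesterases and all 11 inhibitors. These 43 are a small part of the 22746 probe sets tested on each array.

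ATH1 arrays were used to compare Col-0, the wild-type accession, with rcb-10, a null T-DNA insertion allele of RCB (At4g28590) in Col-0. There were 3 arrays of each, from biological replicates that were grown and sampled separately. Seeds on half-strength medium without sucrose were stratified for 4 days at 4 °C in the dark and then kept for 4 days in continuous red (R) light of 10 µmol m-2 s-1. Roots, hypocotyls and cotyledons were extracted together. In this light rcb-10 seedlings are tall and albino, so the groups also differ in growth and greening, and 1 allele stands for the loss of RCB. RCB itself has no named probe set here, so the genotype labels could not be checked by its signal.

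Homogalacturonan, the main pectin of the primary wall, is made in the Golgi and reaches the wall with most of its acid groups methylated. Pectin methylesterases in the wall take these methyl groups off, which lets calcium ions bridge neighbouring chains or opens the chains to polygalacturonases and pectate lyases. The inhibitors are small secreted proteins that bind methylesterases and block them, and the same family also holds proteins that bind acid invertases. In seedlings the balance between methylesterase and inhibitor is known for its part in hypocotyl elongation, apical hook growth and root hair growth. Which enzyme each inhibitor below binds is not given by its annotation.

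Values are the deposited array signals, on a linear scale on which the trimmed mean of each array was 500.04. A probe set was taken as detected above 43.8, the brightest of the bacterial trp control signals, and between 19.5% and 21.7% of the probe sets on an array lay at or below it. Log2 signals of the arrays correlated at 0.945 to 0.953 within a genotype and at 0.919 to 0.928 between genotypes. Of the marker genes listed for root and for green cotyledon, none had a single-gene probe set. The 2 of 7 root hair markers that did, EXPA7 and EXPA18, which encode wall-loosening expansins, had a summed signal of 297 to 402 in Col-0 and 133 to 160.2 in rcb-10, with log2 differences of -1.06 and -1.50 (limma adjusted p = 0.0328 and 0.00433). PRP3, another root hair marker, and GLK1, an activator of chloroplast genes, had log2 differences of -1.45 and -1.59. Both are named only through the study's table of genes called as differing by 2-fold in these same arrays. They were thus selected for a difference, and markers without one could not be named this way. The part of these markers in the differences below was not tested. Of 5 pollen markers 3 were measured, none was above background on any array, and they summed to 36.7 to 52.6 in Col-0 and 51.1 to 91.0 in rcb-10.

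Between the genotypes 12 of the 43 measured members differed at a Benjamini-Hochberg adjusted p under 0.05, 8 of them lower in rcb-10 and 4 higher. That is 27.9% of the members, where 16.9% of all probe sets passed the same test, 10.2% as lower and 6.76% as higher. With a fold of at least 2 as a further threshold, 7 members remained, 3 lower and 4 higher, and 7.22% of all probe sets did. The difference between the 2 classes of member was not tested. Of the inhibitors, 6 of 11 passed (54.5%), 3 in each direction. The members were listed with earlier results of these data known, so the shares are those of the listed genes only. Of the methylesterases, 6 of 32 passed (18.8%, near the share of all probe sets), 5 lower and 1 higher. One of the 5, AT5G51490, lay below background on all 6 arrays, which leaves 4 lower methylesterases with a measured level. The members' median log2 difference was -0.23 for the methylesterases and 0.12 for the inhibitors (range -3.83 to 1.86), beside -0.04 over all probe sets. The methylesterase median takes in 8 genes that were at background on all arrays and whose differences have no meaning as a direction. The 16 methylesterases above background on all arrays ran from -1.35 to 1.31. In whole seedlings, fewer cells of a type and less RNA per cell cannot be told apart.

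The split of calls between the directions depended on how the arrays were centred. As deposited, 53.2% of all probe sets had a difference below 0. When each array was centred on its median, 12 members again passed but 4 were lower and 8 higher, beside 4046 of 22746 probe sets that passed. The inhibitors then gave 1 lower and 5 higher, and the methylesterases 3 in each direction. Quantile normalization gave 11 members, 5 lower and 6 higher, of which the inhibitors were 2 lower and 4 higher. With it 3652 of 22746 probe sets passed. The signals of the 3 arrays of Col-0 and the 3 of rcb-10 did not overlap for 23 of the 43 members (53.5%), 14 of them lower in rcb-10, beside 40.6% of all probe sets.

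**Figure D1:**
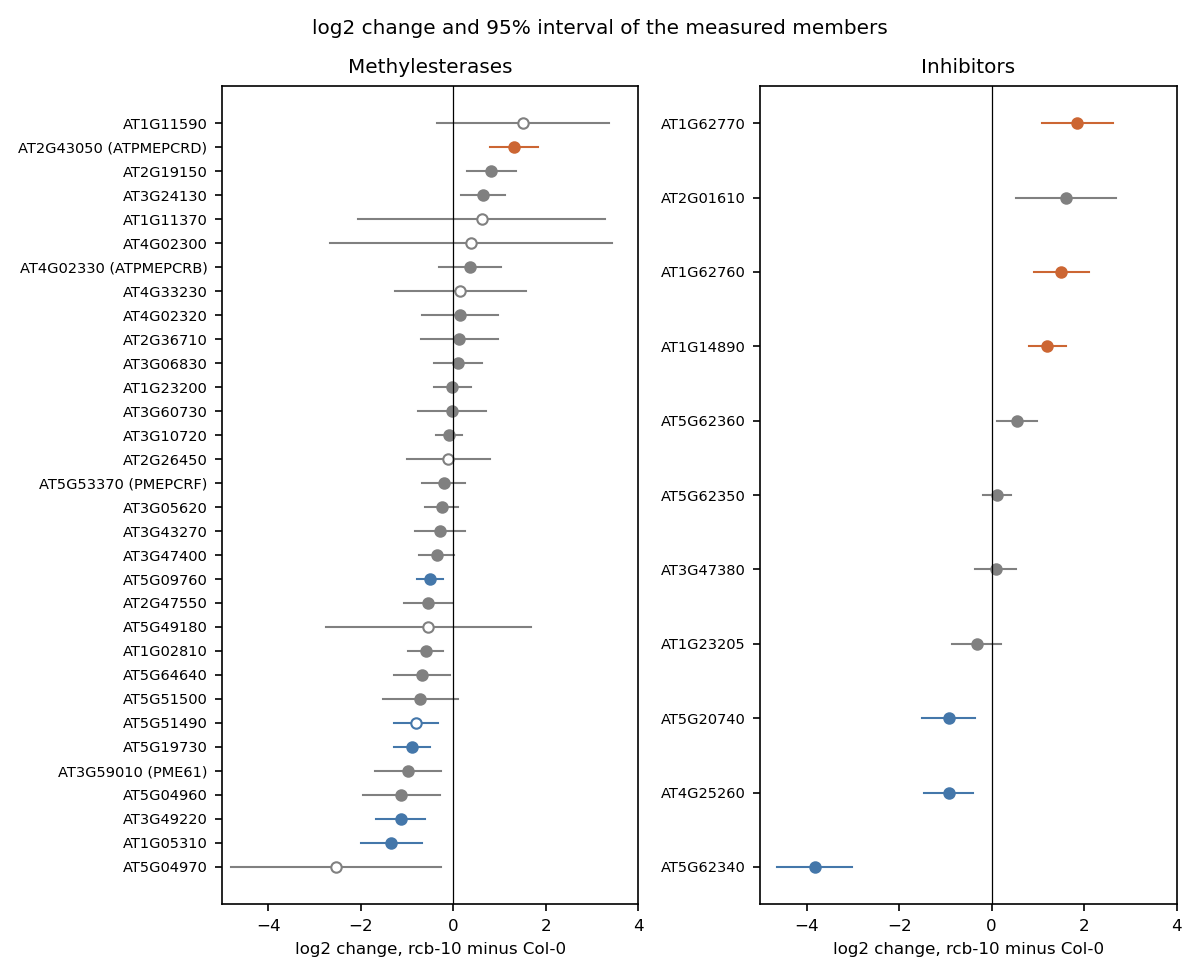
Log2 difference of each measured member between rcb-10 and Col-0, with the 95% interval of limma. Blue points passed as lower, orange points passed as higher, grey points did not pass, and open points lay at background on all 6 arrays. The inhibitors reach from -3.83 to 1.86, and most methylesterases sit between these ends and below 0.

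Among the inhibitors, AT5G62340 had the widest gap between the genotypes. Its signals in Col-0 were 753, 431 and 796, and in rcb-10 they were 41.1, 35.6 and 61.8, of which 1 of 3 was above background. No array of rcb-10 came near any array of Col-0. The log2 difference was -3.83 (SE 0.33, 95% interval -4.63 to -3.02, adjusted p = 0.00477). With signals below background raised to it, the gene was at least 13.0-fold lower in rcb-10 (adjusted p = 0.00572). The call held when any of the 6 arrays was left out.

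AT4G25260, an inhibitor gene that the study lists as a direct target induced by PIFs, the phytochrome-interacting transcription factors, was lower too. It gave 964, 1187 and 1232 in Col-0 against 449, 664 and 683 in rcb-10, a log2 difference of -0.93 (SE 0.21, adjusted p = 0.0383). AT5G20740 gave 218, 228 and 323 in Col-0 and 121, 167 and 115 in rcb-10, also a log2 difference of -0.93 (SE 0.23, adjusted p = 0.0465). For both genes the groups did not overlap, but neither call held in any fit with 1 array fewer (adjusted p up to 0.104 and 0.129). With the arrays centred on their medians neither passed, nor with the methods' t-test (adjusted p = 0.0738 and 0.0884), and AT5G20740 also failed with quantile normalization and with low signals raised to background (adjusted p = 0.0551).

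The other 3 inhibitors that passed were higher in rcb-10, each by a fold above 2. AT1G14890 gave 1151, 1449.8 and 1009 in Col-0 and 2739.7, 2772 and 2678 in rcb-10, where the replicates were close together. The mean went from 1203 ± 225 to 2729.9 ± 47.9 (SD, n = 3), 2.29-fold, with a log2 difference of 1.20 (SE 0.16, 95% interval 0.80 to 1.60, adjusted p = 0.0114). AT1G14890 and AT5G62340 were the members whose calls held without any single array.

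AT1G62770 had the largest rise of the 4 members that passed as higher. Its signals were 397, 874 and 719 in Col-0 and 2142, 2215 and 2495 in rcb-10, so that all arrays of the mutant lay above all arrays of the wild type. The mean rose 3.62-fold, from 664 ± 243 to 2284 ± 186, with a log2 difference of 1.86 (SE 0.31, adjusted p = 0.0178). Its neighbour AT1G62760 rose from 119, 67.6 and 100.6 to 239, 261 and 299, a 2.84-fold change with a log2 difference of 1.51 (SE 0.24, adjusted p = 0.0160). The call of AT1G62770 was lost when any array of rcb-10 was left out (adjusted p up to 0.0628), and that of AT1G62760 without rcb-10 replicate 2 or 3 (up to 0.0587). AT1G62760 has a second, dimmer probe set, with 1.69, 2.74 and 34.8 in Col-0 and 7.23, 3.72 and 2.04 in rcb-10, none of them above background, and the mean of both probe sets did not pass (adjusted p = 0.631).

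**Figure D2:**
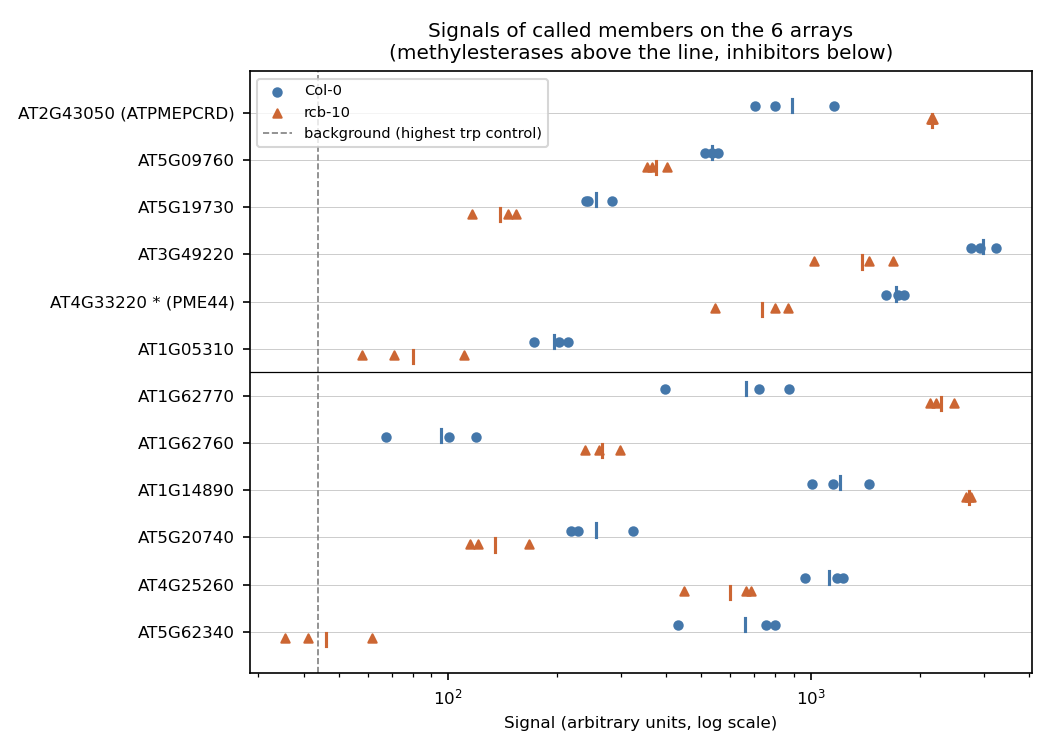
Signal on each array (linear units on a log axis) of the members that passed and were above background on some array. Circles are Col-0, triangles rcb-10 and short bars the means of 3 arrays, and the dashed line is the background of 43.8. The asterisk marks AT4G33220, which is named only through the study's table of genes called in these arrays. Methylesterases stand above the dividing line and inhibitors below it, and in each row the 2 genotypes do not overlap.

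The remaining 5 inhibitors did not pass. AT2G01610 came closest, with 66.3, 85.9 and 44.0 in Col-0 and 108, 250.4 and 265 in rcb-10. The groups did not overlap, yet the arrays of rcb-10 were far apart, and the log2 difference of 1.61 had a 95% interval of 0.53 to 2.69 (adjusted p = 0.0594). Without rcb-10 replicate 1, the lowest of the 3, the adjusted p was 0.0382. The gene also passed with median centring (0.0421), with quantile normalization (0.0472), without dim probe sets (0.0162) and with a variance trend (0.0072). It did not pass without any other single array (adjusted p up to 0.151) or with low signals raised to background (0.0831). The methods' t-test (0.122) and the fit with a replicate block (0.112) gave no call either. AT5G62360, which the study lists as a PIF-repressed direct target, gave 244, 298 and 228 in Col-0 and 439, 342 and 344 in rcb-10 (log2 difference 0.55, 95% interval 0.12 to 0.97, adjusted p = 0.0834). It passed with median centring (adjusted p = 0.0429), without dim probe sets (0.0358) and with a variance trend (0.0270). With quantile normalization, low signals raised to background, the methods' t-test or a replicate block it did not pass (adjusted p up to 0.160). Nor did it pass in any fit with 1 array fewer (up to 0.192). AT3G47380, which is on the same list, had a difference of 0.08 (interval -0.36 to 0.53, adjusted p = 0.786), and AT1G23205 one of -0.33 (interval -0.86 to 0.20, adjusted p = 0.344).

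AT5G62350 had the brightest probe set of any member. Its signals were 4897, 5845 and 5870.2 in Col-0 and 5846, 6161 and 6009 in rcb-10. The groups overlapped, the means were 5537 ± 555 and 6005 ± 157, and the log2 difference of 0.12 had a 95% interval of -0.18 to 0.43 (adjusted p = 0.543).

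Of the methylesterases, which carry out the demethylation itself, AT3G49220 was the brightest that passed. Col-0 gave 2775, 2939 and 3256, while rcb-10 gave 1022, 1689 and 1448, well apart from the wild type on every array. The mean fell from 2989.9 ± 245 to 1386 ± 338, 2.20-fold, with a log2 difference of -1.14 (SE 0.21, 95% interval -1.66 to -0.61, adjusted p = 0.0230). AT1G05310 fell from 173, 202 and 215 to 71.0, 111 and 57.9, 2.54-fold, with a log2 difference of -1.35 (SE 0.26, adjusted p = 0.0262). The highest array of rcb-10 was replicate 2, and without it the call held, whereas it was lost without any of the other 5 arrays (adjusted p up to 0.0803). AT3G49220 kept its call without rcb-10 replicate 1 or 2 and lost it without each other array (up to 0.0674). With the methods' t-test neither AT3G49220 nor AT1G05310 passed (adjusted p = 0.0507 and 0.0609).

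A pair of methylesterase genes fell by less than 2-fold with little spread between replicates. AT5G19730 gave 284, 244 and 240.0 in Col-0 and 116, 147 and 154 in rcb-10, a log2 difference of -0.89 (SE 0.16, adjusted p = 0.0205). AT5G09760 gave 534, 512 and 557 against 403, 355 and 367, a log2 difference of -0.51 (SE 0.11, adjusted p = 0.0341). The groups stood apart for both genes, but with any array left out neither passed (adjusted p up to 0.0653 and 0.115), and AT5G09760 did not pass with median centring or quantile normalization. AT5G51490 passed by number alone (adjusted p = 0.0429). Its signals of 6.9, 6.2 and 8.9 in Col-0 and 3.5, 4.6 and 4.4 in rcb-10 all lay below background, so no fold is given.

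ATPMEPCRD (AT2G43050) was the methylesterase that rose. In Col-0 it gave 705, 1164 and 799, and in rcb-10 it gave 2151, 2174 and 2159, with little spread between its replicates. The mean rose 2.49-fold, from 889 ± 242 to 2161 ± 11.5, with a log2 difference of 1.31 (SE 0.21, 95% interval 0.80 to 1.83, adjusted p = 0.0156). The spread lay in the wild type, whose highest array was still below the lowest of the mutant. Without any 1 array of rcb-10 the gene did not pass (adjusted p up to 0.0574), while its log2 difference was 1.31 to 1.32 in these fits.

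PME44 (AT4G33220) has no entry in the platform's probe annotation and is named only through a table of the study, so it was left out of the counts. That table lists only genes that the study called as differing by 2-fold in these same arrays. A gene named through it was thus selected for its difference, and its passing here is no independent result. Its probe set gave 1806, 1615 and 1738 in Col-0 and 544, 867 and 799 in rcb-10. The mean was 1719.9 ± 96.8 in Col-0 and 737 ± 170.2 in rcb-10, 2.38-fold lower (log2 difference -1.25, SE 0.20, adjusted p = 0.0169). PME44 passed without rcb-10 replicate 1 or 2 but not without each other array (adjusted p up to 0.0609).

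Of the 26 methylesterases that did not pass, 11 were above background on all 6 arrays. The brightest of them were AT3G10720 and PMEPCRF (AT5G53370). AT3G10720 gave 1509.9, 1542 and 1482 in Col-0 and 1320.3, 1375 and 1555 in rcb-10, with a log2 difference of -0.10 (95% interval -0.38 to 0.19, adjusted p = 0.611). PMEPCRF (AT5G53370) gave 502, 479 and 572 against 350.0, 526 and 479.8, with a log2 difference of -0.21 (interval -0.68 to 0.26, adjusted p = 0.490). In both, the arrays of the genotypes overlapped, and a fall of 2-fold lies outside either interval.

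The other 9 detected methylesterases ran from near the threshold to no visible difference. Nearest to it was AT1G02810, with 130.0, 159 and 139 in Col-0 and 91.1, 83.1 and 109 in rcb-10 (log2 difference -0.60, 95% interval -0.99 to -0.22, adjusted p = 0.0513). PME61 (AT3G59010) differed by -0.98 (interval -1.69 to -0.27, adjusted p = 0.0715), AT5G64640 by -0.68 (adjusted p = 0.119) and AT2G47550 by -0.54 (adjusted p = 0.135). These 4 had intervals wholly below 0 before adjustment over all probe sets. AT1G02810 passed without dim probe sets (adjusted p = 0.0190), with low signals raised to background (0.0421) and with a variance trend (0.0480). PME61 passed without dim probe sets (adjusted p = 0.0232) and with a variance trend (0.0184). Neither gene passed with median centring or in any fit with 1 array fewer. AT3G47400 differed by -0.36, AT3G43270 by -0.29 and AT3G05620 by -0.25, with intervals that include 0. ATPMEPCRB (AT4G02330) was the 1 gene of the 9 with a positive difference, 0.36 (interval -0.31 to 1.03, adjusted p = 0.415). AT1G23200 differed by -0.02 (adjusted p = 0.943).

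A further 8 methylesterases were above background on some arrays only: AT2G19150, AT5G04960, AT3G24130, AT5G51500, AT3G06830, AT4G02320, AT2G36710 and AT3G60730. AT2G19150 gave 68.7, 42.3 and 50.4 in Col-0 and 81.1, 99.9 and 99.0 in rcb-10 (adjusted p = 0.0543). AT5G04960 gave 125, 114 and 155 against 36.3, 81.3 and 72.6 (adjusted p = 0.0771), and AT3G24130 gave 41.3, 36.0 and 44.5 against 51.0, 62.8 and 78.4 (adjusted p = 0.0780). Their groups did not overlap, although no difference passed in the main fit. AT2G19150 passed with median centring, with quantile normalization, without dim probe sets, with a variance trend and without Col-0 replicate 1. AT3G24130 passed with median centring only, and AT5G04960 without dim probe sets and with a variance trend. On no array were AT5G04970, AT1G11590, AT5G49180, AT1G11370, AT4G02300, AT2G26450, AT4G33230 and AT5G51490 above background, and for these 8 the arrays give an upper limit of the signal and no direction.

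For 17 members the counts hold no value. Besides PME44, these are PPME1 (AT1G69940) and VGDH1 (AT2G47030), whose probe sets name several genes, and 14 without a named probe set here. The 14 are PMEPCRA (AT1G11580), PME2 (AT1G53830), PME1 (AT1G53840), PE11 (AT2G21610), AT2G26440, AT2G45220, RHS12 (AT3G10710), ATPMEPCRC (AT3G14300), PME3 (AT3G14310), PME31 (AT3G29090), PME38 (AT4G00190), PME5 (AT5G47500), QRT1 (AT5G55590) and AT5G61680. QRT1 acts in the separation of pollen tetrads, PPME1 and VGDH1 in pollen tubes, and PME5 in the growth of the shoot meristem. PME5 is also on the study's list of PIF-repressed targets. These genes were not analysed here.

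Many members lie beside one another in the genome. In the order of genes in the TAIR10.1 annotation, 15 pairs of members, made of 28 genes, were direct neighbours or had 1 gene between them, and both genes were measured in 9 pairs. The inhibitors AT5G62340, AT5G62350 and AT5G62360 follow one another on chromosome 5, and their log2 differences were -3.83, 0.12 and 0.55. The inhibitors AT1G62760 and AT1G62770 lie side by side on chromosome 1, and both rose, by 1.51 and 1.86 on the log2 scale. Of the methylesterase pairs on chromosome 5, AT5G51490 stayed below background and AT5G51500 lay between 36.2 and 110.6, and AT5G04960 was above background in Col-0 while AT5G04970 was not. PME44 lay beside AT4G33230, whose annotated span overlaps its own and whose probe set was at background. The difference between neighbours was not tested, and neither was cross-hybridization between these related sequences.

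**Figure D3:**
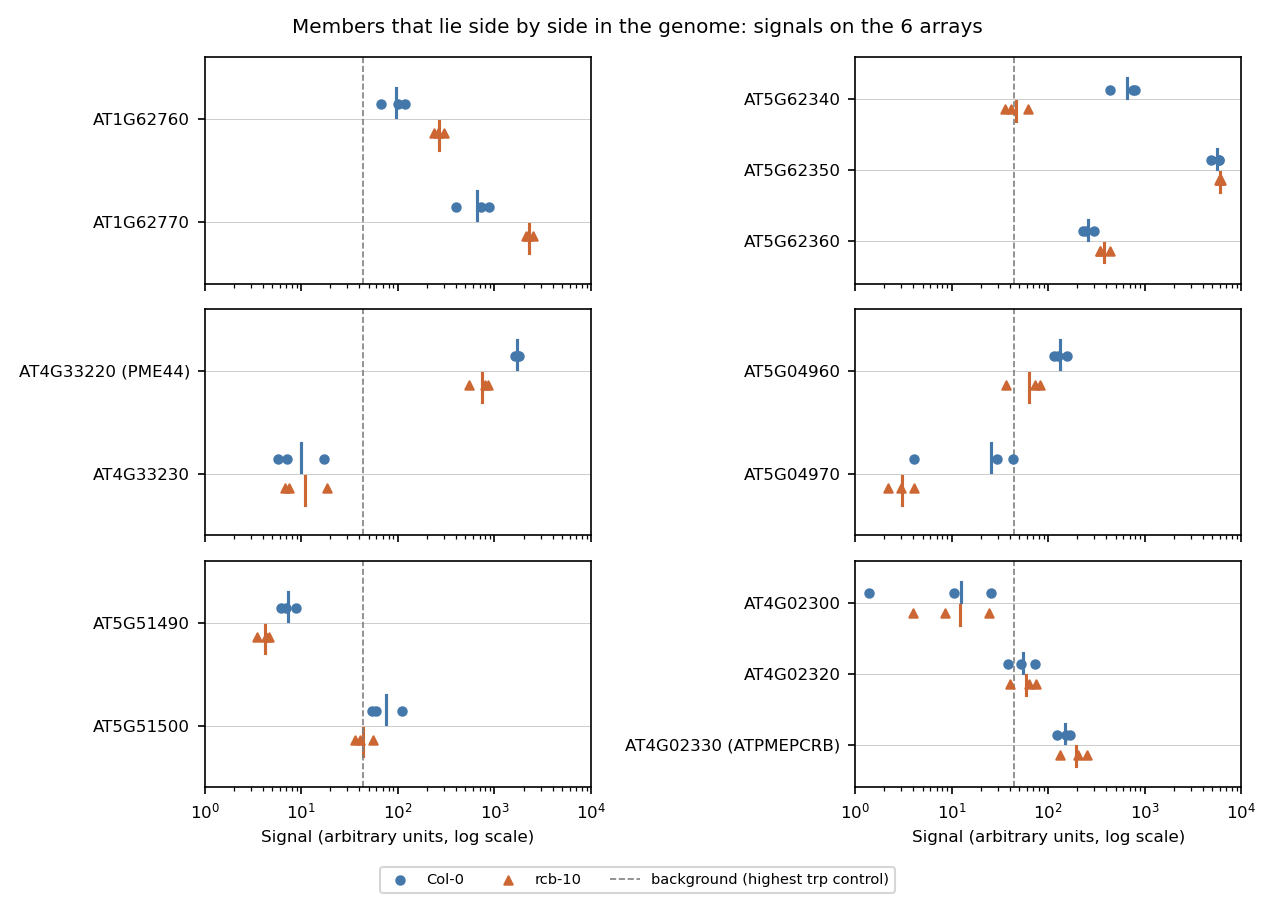
Signal on each array (log axis) of members that lie beside one another in the genome, in 6 groups of neighbours. Circles are Col-0, triangles rcb-10 and the dashed line the background of 43.8. In the group on chromosome 5, AT5G62340 lies between 35.6 and 61.8 in rcb-10 while AT5G62350 stays between 4897 and 6161 on all 6 arrays.

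Genes that act on the same polymer were set beside the members as further lists of 76 genes, of which 35 could be measured. Of the 35, 12 passed, 10 lower and 2 higher (34.3%, beside 16.9% of all probe sets), with a median log2 difference of -0.39. Median centring gave 7 of the 35 (5 lower, 2 higher), beside 4046 of 22746 probe sets. Leaving out Col-0 replicate 1 or rcb-10 replicate 2 gave 4, all lower, beside 1503 and 1432 probe sets. With Col-0 replicate 2 or rcb-10 replicate 3 left out 5 passed, beside 1854 and 1256. With rcb-10 replicate 1 left out 7 passed, beside 1663, and with Col-0 replicate 3 left out 9 (7 lower, 2 higher), beside 2224. Pectate lyases, which cut demethylated pectin, made up most of the 12 that passed with all arrays. Among the 18 measured of 19 listed, 7 were lower, none was higher, and the median was -0.53. AT5G48900 fell from 2419 ± 502 to 687 ± 44.8 (log2 difference -1.80, SE 0.18, adjusted p = 0.00650), and AT3G07010 from 1654 ± 195 to 603 ± 24.7 (-1.45, SE 0.13, adjusted p = 0.00543). AT1G67750 had a log2 difference of -1.31 (adjusted p = 0.0170) and AT4G24780 one of -1.24 (adjusted p = 0.0110). Of these 4 only AT1G67750 lost its call without a single array (Col-0 replicate 1 or 2, or rcb-10 replicate 2, adjusted p up to 0.0610). The other 3 were less stable: AT5G63180 and AT3G53190 passed in no fit with 1 array fewer (adjusted p up to 0.119 and 0.117), and AT1G04680 passed only without rcb-10 replicate 1 (up to 0.0983). Without Col-0 replicate 1, Col-0 replicate 2 or rcb-10 replicate 2, 3 pectate lyases passed, and without rcb-10 replicate 3, 4. Without Col-0 replicate 3, 5 passed, all lower, and without rcb-10 replicate 1, 6 passed, 5 lower and 1 higher. The pectate lyase with the largest rise, AT3G27400, gave 146, 115 and 132 in Col-0 and 116, 353 and 364 in rcb-10. Its log2 difference of 0.91 did not pass (adjusted p = 0.243). Centring the arrays on their medians left 4 pectate lyases that passed, all lower.

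Upstream of the methylesterases, 1 of 4 listed pectin methyltransferases, which add the methyl groups in the Golgi, was measured. AT3G49720 fell from 2507 ± 195 to 1261 ± 131 (log2 difference -0.99, SE 0.13, adjusted p = 0.0114). CGR3 (AT5G65810), a second such enzyme, had a log2 difference of -1.30. It is named only through the study's table of genes called in these arrays, so it was selected for its difference and stays apart from the counts. Of 15 galacturonosyltransferases, which build the homogalacturonan chain, GAUT15 alone was measured and gave a difference of -0.11 (adjusted p = 0.659).

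Enzymes that act after demethylation or beside it gave single calls among the genes counted. These were 16.7% of the measured pectin acetylesterases and 25% of the polygalacturonases, beside 16.9% of all probe sets. Of 6 measured pectin acetylesterases AT3G05910 had a log2 difference of -0.60 (SE 0.14, adjusted p = 0.0383), and of 4 polygalacturonases AT1G48100 had a log2 difference of -0.65 (SE 0.16, adjusted p = 0.0471). Neither passed with 1 array left out (adjusted p up to 0.102 and 0.132) or with the arrays centred on their medians. Another pair of acetylesterase genes is named only through the study's table of genes called in these arrays, and so was selected for a difference. They went in opposite directions: AT5G45280 had a log2 difference of -1.08 (adjusted p = 0.0332) and AT4G19420 one of 1.01 (adjusted p = 0.0381). With 1 array fewer AT4G19420 never passed (up to 0.112), and AT5G45280 passed only without rcb-10 replicate 1 or 2 (up to 0.0966). Subtilases, some of which release the mature methylesterase from its precursor, showed no call among 3 measured: ARA12 (AT5G67360) gave -0.55 (adjusted p = 0.0614), S1P 0.35 (adjusted p = 0.211) and SBT3.5 0.55 (adjusted p = 0.122). No polygalacturonase inhibitor was measured.

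The 2 higher genes of these lists were a receptor and an invertase. FER, the receptor kinase FERONIA, which binds demethylated pectin in the wall, rose from 2559 ± 229 to 3712 ± 51.7 (log2 difference 0.54, SE 0.12, adjusted p = 0.0328). The acid invertase gene AT1G62660 rose from 4225 ± 511 to 6578 ± 355 (log2 difference 0.64, SE 0.14, adjusted p = 0.0315). Each was the only gene of its list, of 6 and of 7 genes, with a single-gene probe set. Leaving out any array but Col-0 replicate 3 took the call from FER (adjusted p up to 0.104), and leaving out any array took it from AT1G62660 (up to 0.103). The vacuolar invertase gene ATBETAFRUCT4 (AT1G12240) is named only through the study's table of genes called in these arrays and was left out of the counts. It was 3.20-fold higher, from 1758 ± 319 to 5571 ± 219 (log2 difference 1.68, SE 0.16, adjusted p = 0.00580), and passed without any single array. Because that table holds only genes selected for their difference, this call is no independent result.

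**Figure D4:**
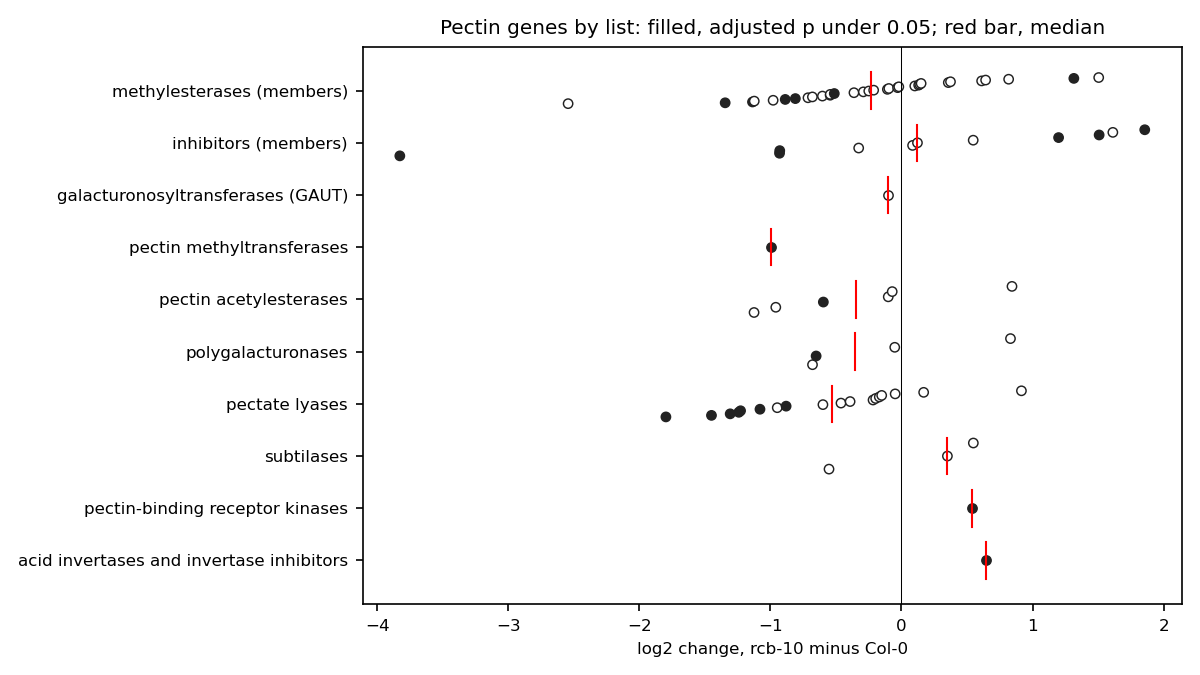
Log2 difference between rcb-10 and Col-0 of each measured gene, by list. Filled points passed at an adjusted p under 0.05, open points did not, and red bars are list medians. The pectate lyases have a median of -0.53 with 7 filled points below 0, while the inhibitors have filled points on both sides of 0.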

How the data were processed

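The members and the lists beside them were chosen with earlier results of these data known. The authors deposited 1 linear intensity per probe set and array. Their methods name GeneSpring GX and RMA, but the values are linear, unlike those of RMA, and their origin stands as not given in the sources used here. Without its top and bottom 2% of probe sets, each array had a mean of 500.04. Log2 of the intensities was therefore taken first.

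All 22746 probe sets other than 64 array controls entered limma 3.58.1 in R 4.3.3 (lmFit and eBayes, 3 rcb-10 against 3 Col-0, no block, no filter), with p-values adjusted over all of them by Benjamini-Hochberg and two-sided. Calls rest on that adjusted p (under 0.05). As a second limit the methods' fold of 2 was added. The fit was tested on simulated data. An exact permutation test of a single gene could not go below p = 0.1 with 3 against 3, so none is given.

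Probe sets were named through the platform's annotation by Entrez gene. There were 13436 probe sets that name 1 gene (13286 genes) and 503 that name several, and none was named from the latter. The brightest probe set stood for a gene. Genes named only through a table of the study were kept apart, because that table holds only genes the study had called as differing in these arrays. Genes without such a call could not be named this way. Named are all members that passed, those detected on all 6 arrays (the 3 brightest that did not pass in full), and up to 4 called genes per further list. Some others were named after their values were seen. The number of arrays limits the precision. Sequences were not used here. Alternatives were median centring, quantile normalization, leaving out dim probe sets, raising low signals to background, other variance estimates, the methods' t-test, averaging a gene's probe sets, a replicate block and leaving out each array. Tables were made with Python 3.11.15, pandas 2.3.3, numpy 2.4.6 and matplotlib 3.10.9.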

Additional observations from a re-analysis of the deposited data

How the results depend on the processing

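Of 43 members, 12 passed as reported (8 lower, 4 higher), beside 3853 of 22746 probe sets. Arrays centred on their medians gave 12 (4 lower, 8 higher, 8 genes shared), beside 4046 probe sets. Quantile normalization gave 11 (5 lower, 6 higher, 9 shared), beside 3652. Without the dimmest 25% of probe sets 31 members were tested and 17 passed (10 lower, 7 higher), beside 5635 of 17059 probe sets. With a variance trend and robust variances 17 of 43 passed (10 lower, 7 higher), beside 5951 of 22746. The methods' t-test after adjustment gave 7 (3 lower, 4 higher), beside 3187. Raising low signals to background gave 11 (7 lower, 4 higher), beside 4722. The mean of a gene's probe sets gave 11 (8 lower, 3 higher), beside 3852. Leaving out 1 array gave 2 to 6 of the 43 members, 1 to 3 lower and 1 to 5 higher, fewest without rcb-10 replicate 3. In the same fits 1256 to 2224 of 22746 probe sets passed, also fewest without rcb-10 replicate 3. Fewer arrays were tested there. The calls of AT5G62340 and AT1G14890 held each time.

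Samples of the same replicate number did not deviate together (correlations 0.0272, -0.0189 and 0.0197). Such correlations cannot tell whether arrays of the same number were grown or processed together. With the replicate block in the fit 0 members passed (0 lower, 0 higher), as did 0 of 22746 probe sets, while 21 members had an unadjusted p under 0.05.

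The methylesterase median of -0.23 was -0.061 centred, -0.12 with quantile normalization, -0.44 without dim probe sets, -0.010 with low signals raised and -0.31 to -0.16 with 1 array left out. The inhibitor median of 0.12 was 0.29 centred, 0.26 with quantile normalization and 0.036 to 0.22 with 1 array left out. Both are moved by any shift of all genes: the median of all probe sets, -0.04 as deposited, was 0.13 when centred and 0.02 with quantile normalization.

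Some differences near 0, none of them called, changed sign. AT1G23200 was 0.15 centred, 0.043 with quantile normalization and -0.13 to 0.075 over the fits with 1 array fewer, where it was above 0 when Col-0 replicate 2 or rcb-10 replicate 1 was missing. AT3G10720 was 0.074 centred, AT3G47380 -0.022 without rcb-10 replicate 3 and AT5G62350 -0.022 with quantile normalization. Raising low signals set the difference of the 8 members at background on all arrays to 0, and the median of -0.010 includes them. The causes were not tested.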
